A study of Mus musculus with 8 samples.

Results

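Ephrins and Eph receptors form the largest family of receptor tyrosine kinases and their cell-bound ligands, and 10 genes of it were described in tumor endothelial cells. The 10 genes (Efna1, Efna2, Efna4, Efna5, Efnb1, Efnb2, Epha2, Epha4, Ephb2 and Ephb4) were taken by symbol from a list, and all 10 were found among the 20057 genes measured. All 10 were also among the 12969 genes tested, which are those whose mean in the higher group was above 10 normalized reads, a unit explained below. Efna2 met that limit only through the isotype control group.

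The ligands and receptors both sit in the plasma membrane, so that signaling needs contact between cells. A-type ephrins are held by a GPI anchor and bind mainly EphA receptors, whereas B-type ephrins span the membrane and bind mainly EphB receptors. Binding signals in both directions, forward through the kinase of the receptor and in reverse through the ligand. In blood vessels, ephrin-B2 is the classical marker of arterial endothelium and EphB4 that of venous endothelium, and the pair helps to keep both kinds of vessel apart, while ephrin-A1 and EphA2 are known from inflamed and tumor vessels.

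The cells came from B16-F10 tumors, a melanoma line of the mouse, in male C57BL/6 mice that were 8 weeks old and received 250000 tumor cells under the skin. One group was treated with agonistic CD40 mAb (clone FGK4.5) and the other with a rat IgG2a isotype control, each as 30 µg injected beside the tumor on day 13 and again on day 16, and the labels place the sort of all 8 tumors 1 day after the last injection, whereas the study's methods also name a later day for such sorts. Live cells without CD45, a leukocyte marker, and with CD31, an endothelial marker, were sorted, about 100000 from each tumor, and 10 ng of RNA was sequenced as 1 library per tumor. Every mouse carried the same transplanted line and nothing in the host was deleted. The 4 libraries of the agonistic CD40 mAb group are named 5N, 6L, 6R and 10N after their mice, and the 4 libraries of the isotype control group 5L, 7N, 8N and 9L. The comparison asks how these endothelial genes differ between the treatments.

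Values are normalized reads, the reads on a gene after scaling of the libraries to a common depth. The libraries held between 12512772 and 64938728 reads on genes in the agonistic CD40 mAb group and between 2971689 and 35583141 in the isotype control group, so that 1 read was worth 0.118 normalized reads in 5N, the deepest, and 2.44 in 5L, the shallowest. Cdh5, the VE-cadherin of endothelial junctions, ranged from 9535 to 14039 normalized reads and Pecam1, which encodes CD31, from 7671 to 12526. Ptprc, which encodes CD45, ranged from 1.51 to 21.1 in the agonistic CD40 mAb group and from 0 to 4.98 in the isotype control group. The defining melanoma genes Pmel and Mlana were not near 0, with Pmel between 5736 and 18499 and Mlana between 493 and 1491. The summed level of 11 melanoma markers was 38083 to 65163 against 41179 to 100811, that of 14 endothelial markers 62775 to 87052 against 53289 to 73528, and that of 8 fibroblast markers 121543 to 250370 against 89377 to 218063. In 5L the melanoma sum was the highest and the endothelial and fibroblast sums the lowest of the 8 libraries. The part of these other cells in the results below was not tested. In such a mixture, fewer cells of a type and less RNA per cell cannot be told apart.

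Promoter sequences are shown for the 2 members with the largest difference between the groups in either direction, Efna2 and Epha4. They run from 250 bases before to 50 bases after the transcription start, 5′ to 3′ on the strand of the gene, as RefSeq gives them for GRCm38.p6. Efna2 lies at chr10:80179232-80179531 on the plus strand, with 74.7% G and C and 31 CpG. Epha4 lies at chr1:77515039-77515338 on the minus strand, with 64% G and C and 17 CpG. The capitals mark TGGGAA, the core letters bound by RBPJ, the DNA-binding partner of Notch.
Efna2: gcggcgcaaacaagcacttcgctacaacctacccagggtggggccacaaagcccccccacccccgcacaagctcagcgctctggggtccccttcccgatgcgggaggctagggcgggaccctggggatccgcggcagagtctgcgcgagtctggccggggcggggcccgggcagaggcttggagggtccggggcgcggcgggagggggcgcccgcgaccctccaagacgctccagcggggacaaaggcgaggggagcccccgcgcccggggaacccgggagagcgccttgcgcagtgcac
Epha4: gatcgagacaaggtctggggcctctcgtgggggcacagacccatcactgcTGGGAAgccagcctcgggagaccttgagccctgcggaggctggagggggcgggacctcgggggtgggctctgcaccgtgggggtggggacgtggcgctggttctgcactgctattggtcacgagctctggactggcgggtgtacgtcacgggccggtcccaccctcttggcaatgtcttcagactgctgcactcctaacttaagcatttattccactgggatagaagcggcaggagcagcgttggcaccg

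The 10 members have 11 promoters in RefSeq, since Efna1 has 2 starts, and matches on both strands are given for 2 sets of letters. The ISRE letters read by interferon-activated factors, searched as GAAA, any 2 bases and GAAA again, occurred in 0 of 11 promoters and in 3.44% of all 32851 promoters of that length. TGGGAA occurred in 2 of 11, those of Epha4 and Efnb1, and in 25.6% of all, and in Epha4 it starts 200 bases before the transcription start. These matches only describe the letters in the window.

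Across the 10 genes, the largest difference in level between the treatments was that of the sparsely read ligand Efna2, which was lower with agonistic CD40 mAb at a ratio of group means of 0.399. The 9 others had ratios between 0.966 (Efna4) and 1.43 (Epha4), and their groups overlapped. A gene was counted as past the threshold at a ratio of at least 1.5, or its inverse, with an unadjusted limma p of at most 0.05. By this rule 1 of the 10 members was lower (Efna2), beside 0.239% of all genes tested, and 0 were higher, beside 1.28%. As Efna2 was tested only because its isotype control mean, 11.02 normalized reads, was above the limit of 10, the limit itself favoured this direction, and the count is given as a description. The other 9 members were past the threshold in 0 cases. The groups did not overlap for the same 1 member, beside 0.486% of all genes tested that were lower in this way and 1.09% that were higher. After Benjamini-Hochberg adjustment over all genes tested, 0 members passed in limma. Over the other tools and settings, the lowest adjusted p of a member was 0.784, for Efna2 in limma with library quality weights. Of the 12969 genes tested, 2 had an adjusted p under 0.05 in limma, a number that was 64 with DESeq2, 3 with edgeR, 17 with library quality weights, 18 after scaling to endothelial markers and 19 without 5L.

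**Figure D1:**
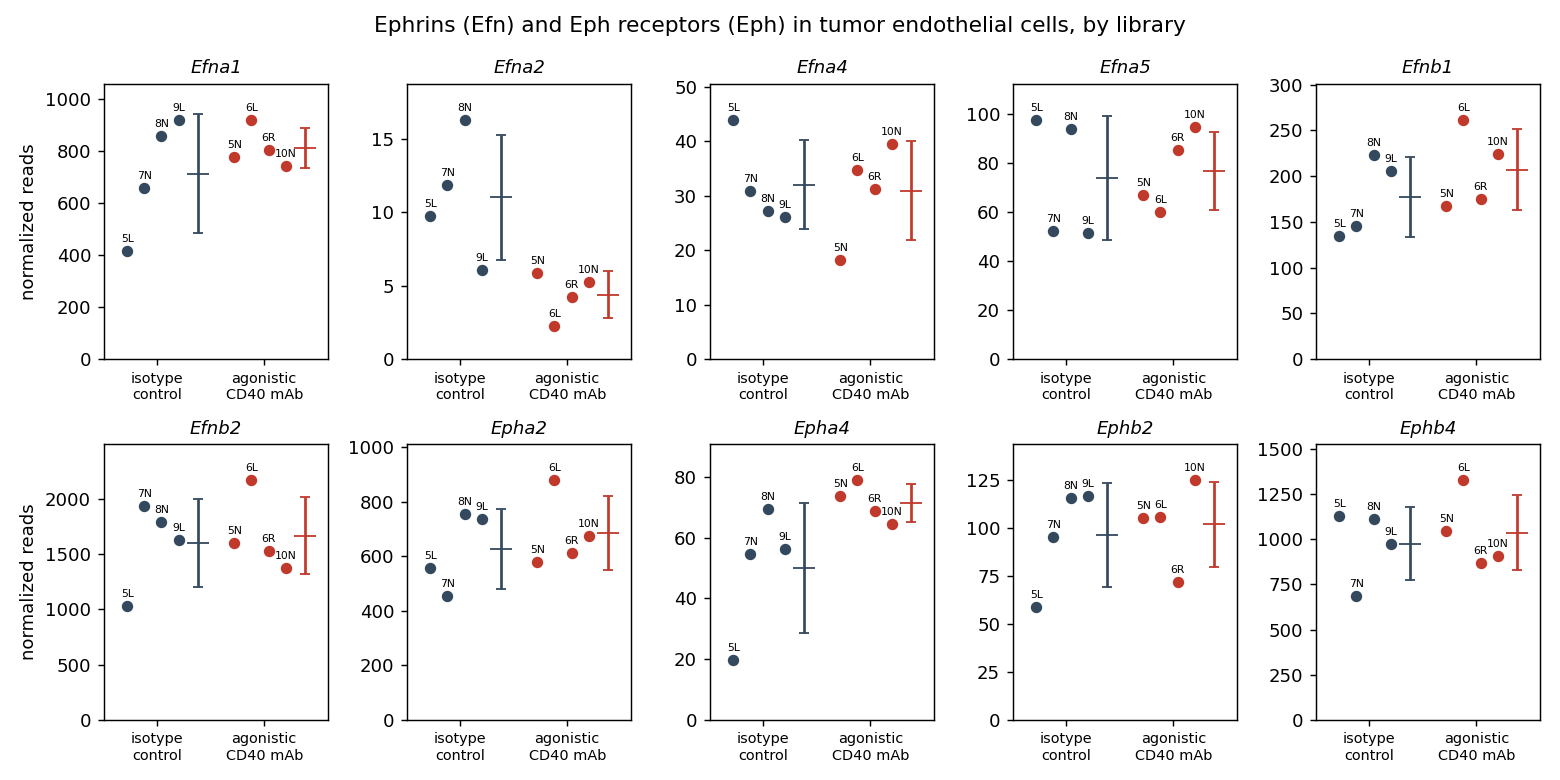
Normalized reads (vertical axis, from 0, scaled for each gene) of the 10 genes in each library, with isotype control in grey-blue and agonistic CD40 mAb in red. Each point is 1 library, the bar beside the points is the mean with SD of 4 libraries, and only for Efna2 do the points of the groups not overlap.

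Levels can be compared between genes only per length, and for this the normalized reads were divided by the kilobases of exon of each gene. On this scale the order was led by the ligand Efna1 with a mean of 416 over the 8 libraries, followed by the ligand Efnb2 with 341, and the receptors Ephb4 with 230 and Epha2 with 168. Efnb1 followed with 58.9, Efna4 with 19.7, Efna5 with 18.7, Epha4 with 9.59, Ephb2 with 9.09 and Efna2 with 3.62. The arterial ligand Efnb2 and its venous receptor Ephb4 thus stood beside each other, with Efnb2 the higher of the pair per length in 7 of 8 libraries. The ranges over libraries were apart for only 3 pairs of neighbours in this order, Epha2 above Efnb1, Efnb1 above Efna4 and Efna5 above Epha4. Efna4 was above Efna5 in 5 of 8 libraries and Epha4 above Ephb2 in 4 of 8, so these neighbours did not differ beyond their spread. The list therefore held 4 genes above 100 normalized reads per kilobase in every library and 1 gene, Efna2, that stayed between 1.06 and 7.67.

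**Figure D2:**
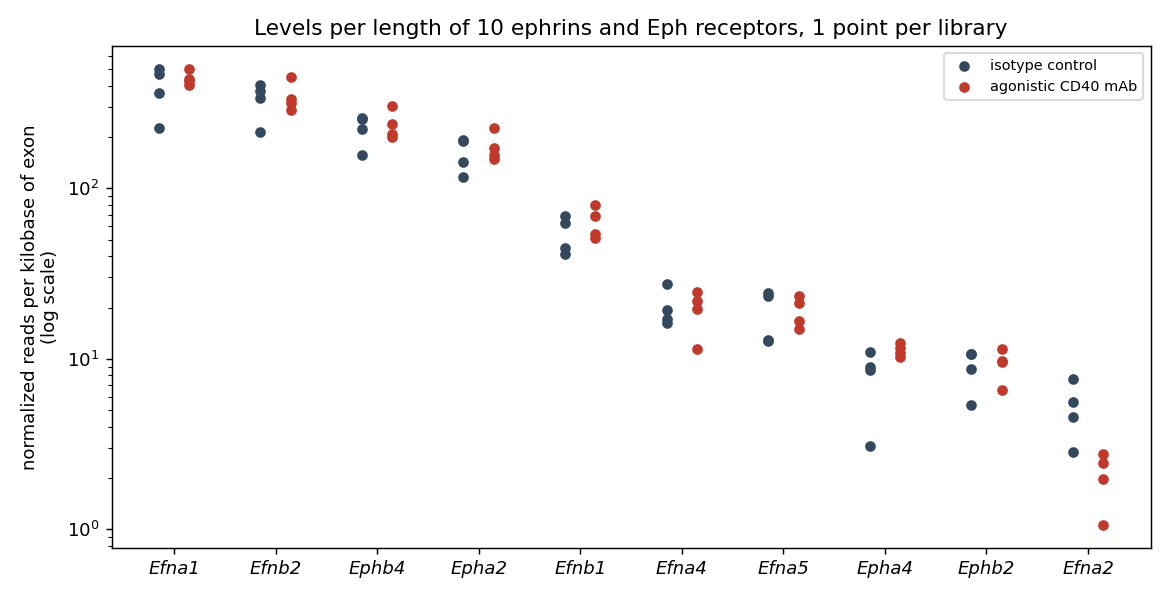
Normalized reads per kilobase of exon (vertical axis, log scale) of the 10 genes, ordered by their mean over 8 libraries, with 1 point per library and the groups in separate columns. Efna1, Efnb2, Ephb4 and Epha2 lie above 100 in all 8 libraries, and Efna2 lies lowest with a mean of 3.62.

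Among the A-type ligands, Efna1 (chr3:89271733-89281142, minus strand, mm10) encodes ephrin-A1, which is induced in endothelium by inflammatory cytokines. In the agonistic CD40 mAb group it was read at 775 in 5N, 919.9 in 6L, 802 in 6R and 743 in 10N normalized reads. In the isotype control group it was read at 415 in 5L, 659 in 7N, 858 in 8N and 921 in 9L. The treated libraries lay close together, inside the range of the isotype control libraries, of which 5L was far lower than 9L. The means were 810 ± 77.2 and 713 ± 228 (SD, n = 4 each), and the log2 fold change was 0.24 with a 95% interval of −0.25 to 0.73 (SE 0.22, limma, adjusted p = 1.00). The exact permutation test of the means gave p = 0.514. Without 5L the log2 fold change of Efna1 was 0.0053, at a ratio of 0.997.

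Efna2 (chr10:80179482-80190010, plus strand, 4 exons) encodes ephrin-A2, an A-type ligand known best as a guidance cue for axons. Its levels were 5.89 in 5N, 2.26 in 6L, 4.21 in 6R and 5.23 in 10N normalized reads, against 9.78 in 5L, 11.9 in 7N, 16.3 in 8N and 6.07 in 9L. All 4 treated libraries were below all 4 isotype control libraries, but the gap between 5N and 9L, the deepest library of each group, was the narrowest. These values rest on few reads, namely 50 in 5N, 6 in 6L, 7 in 6R and 9 in 10N against 4 in 5L, 5 in 7N, 12 in 8N and 28 in 9L. The exact Poisson 95% interval of the level was 4.37 to 7.76 normalized reads in 5N and 4.03 to 8.77 in 9L, which overlap, while that of 8N, 8.44 to 28.5, lay above that of 5N. In the 3 shallowest libraries, all of the isotype control group, 1 read was worth at least 1.36 normalized reads, and depth and treatment cannot be told apart there. These intervals cover counting error only, since reads without molecular identifiers are not independent molecules.

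The means of Efna2 were 4.40 ± 1.58 and 11.02 ± 4.29 normalized reads (SD, n = 4 each), and the log2 fold change was −1.14 with a 95% interval of −2.25 to −0.03 (SE 0.50, limma, adjusted p = 1.00). The unadjusted limma p was 0.0457, and the exact permutation test of the means gave p = 0.0286, the smallest that 4 against 4 libraries allow. Both are no independent support, since the gene entered the test through the group in which it is high. The call did not hold when libraries were left out in turn, as it remained in just 1 of 8 such fits, that without 9L, with log2 fold changes from −1.37 to −0.91 and unadjusted limma p from 0.0291 to 0.132. With a pseudocount of 0.1 the log2 fold change was −1.30 and the unadjusted limma p 0.0572, and after scaling to endothelial markers they were −1.26 and 0.0563, so that the difference was no smaller but p missed the threshold. Of the 10 settings in which Efna2 was tested, 8 kept the call. Over these 10 the unadjusted p of limma, edgeR or DESeq2 ran from 0.0065 to 0.057. Over all genes with a value above 0 the unadjusted limma p was 0.0249. These fits use the same few reads and are no independent support either.

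Efna4 (chr3:89333390-89338028, minus strand), the gene of ephrin-A4, lies near Efna1 on chromosome 3, with Efna3 between them, and had levels of 18.3 in 5N, 34.7 in 6L, 31.3 in 6R and 39.5 in 10N normalized reads, against 44.0 in 5L, 30.9 in 7N, 27.2 in 8N and 26.0 in 9L. The lowest library was 5N and the highest 5L, and the other 6 lay mixed. The means were 30.9 ± 9.10 and 32.0 ± 8.24 (SD, n = 4 each), with a log2 fold change of −0.07 and a 95% interval of −0.77 to 0.63 (limma, adjusted p = 1.00). Its exons overlap by 168 bases those of 4731419I09Rik on the other strand, and 7.68% of its 50-base windows also occur in that gene, so a part of its reads is uncertain.

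Efna5 (chr17:62604184-62881317, minus strand), which encodes ephrin-A5, had levels of 67.1 in 5N, 60.0 in 6L, 85.4 in 6R and 94.7 in 10N normalized reads, against 97.8 in 5L, 52.3 in 7N, 93.9 in 8N and 51.6 in 9L. The isotype control libraries fell into a higher pair (5L and 8N) and a lower pair (7N and 9L), and the treated libraries lay between the extremes. The means were 76.8 ± 16.0 and 73.9 ± 25.4 (SD, n = 4 each), with a log2 fold change of 0.10 and a 95% interval of −0.51 to 0.71 (limma, adjusted p = 1.00).

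Of the B-type ligands, Efnb1 (chrX:99136130-99148991, plus strand) encodes ephrin-B1, which binds EphB receptors on vessel and mural cells. It was read at 167 in 5N, 262 in 6L, 175 in 6R and 224 in 10N normalized reads, against 134 in 5L, 145 in 7N, 223 in 8N and 205 in 9L. The highest library, 6L, was a treated one and the 2 lowest, 5L and 7N, were isotype controls, while the other 5 were mixed. The means were 207 ± 44.4 and 177 ± 43.8 (SD, n = 4 each), with a log2 fold change of 0.23 and a 95% interval of −0.24 to 0.71 (limma, adjusted p = 1.00), and the exact permutation p = 0.343. Without 5L the log2 fold change of Efnb1 was 0.11, and it was also 0.11 without 6L.

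Efnb2 (chr8:8617434-8661242, minus strand), the gene of the arterial ligand ephrin-B2, had the highest mean of all members before division by length. It was read at 1599.7 in 5N, 2169.9 in 6L, 1526 in 6R and 1377 in 10N normalized reads, against 1031 in 5L, 1939 in 7N, 1793 in 8N and 1630.0 in 9L. The lowest library was 5L and the highest 6L, with both groups between. The means were 1668 ± 347 and 1598 ± 398 (SD, n = 4 each), and the log2 fold change was 0.08 with a 95% interval of −0.38 to 0.54 (SE 0.21, limma, adjusted p = 1.00). As a ratio this interval runs from 0.77 to 1.45, so that a change of 1.5-fold in either direction lay outside it.

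Among the EphA receptors, Epha2 (chr4:141301240-141329384, plus strand) encodes EphA2, a receptor of ephrin-A1. Its levels were 579 in 5N, 878 in 6L, 611 in 6R and 674 in 10N normalized reads, against 557 in 5L, 454 in 7N, 755 in 8N and 738 in 9L. The highest library was 6L, as for Efnb1 and Efnb2, whereas the lowest for Epha2 was 7N. The means were 686 ± 134 and 626 ± 145 (SD, n = 4 each), with a log2 fold change of 0.14 and a 95% interval of −0.28 to 0.56 (limma, adjusted p = 1.00).

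Epha4 (chr1:77367185-77515088, minus strand) encodes EphA4, a receptor that binds ephrins of both types. Its levels were 73.6 in 5N, 78.8 in 6L, 68.6 in 6R and 64.5 in 10N normalized reads, against 19.6 in 5L, 54.7 in 7N, 69.4 in 8N and 56.3 in 9L. The treated libraries lay within a narrow band, 3 of 4 isotype control libraries were below all of them, and 8N lay inside the band. The value of 5L rests on 8 reads, with an exact Poisson 95% interval of 8.44 to 38.5 normalized reads, below the levels of all other libraries.

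The means of Epha4 were 71.4 ± 6.22 and 50.0 ± 21.3 (SD, n = 4 each), a ratio of 1.43 that missed the threshold, and the log2 fold change was 0.64 with a 95% interval of −0.14 to 1.42 (SE 0.35, limma, adjusted p = 1.00). The exact permutation test gave p = 0.0857. When 8N was left out the ratio was 1.64 and the unadjusted limma p was 0.0466, which passed the threshold. Without 5L the ratio was 1.19 with an unadjusted limma p of 0.263, and with library quality weights the log2 fold change was 0.20 with an unadjusted limma p of 0.402. Over the 8 fits that leave out 1 library each the log2 fold change ranged from 0.25 to 0.84.

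Ephb2 (chr4:136647539-136835988, minus strand) encodes the B-type receptor EphB2, which binds ephrin-B ligands. It was read at 105 in 5N, 106 in 6L, 71.6 in 6R and 125 in 10N normalized reads, against 58.7 in 5L, 95.2 in 7N, 116 in 8N and 117 in 9L. Each group had 1 low library, 6R and 5L, and the others overlapped. The means were 102 ± 22.1 and 96.5 ± 27.1 (SD, n = 4 each), with a log2 fold change of 0.10 and a 95% interval of −0.48 to 0.68 (limma, adjusted p = 1.00).

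Ephb4 (chr5:137350109-137378669, plus strand), the gene of the venous receptor EphB4, was read at 1045 in 5N, 1327 in 6L, 870.0 in 6R and 905 in 10N normalized reads, against 1129 in 5L, 688 in 7N, 1111 in 8N and 976 in 9L. In contrast to Efnb2, 5L was not low for this gene, and the lowest library was 7N. The means were 1037 ± 208 and 976 ± 204 (SD, n = 4 each), and the log2 fold change was 0.09 with a 95% interval of −0.32 to 0.50 (SE 0.19, limma, adjusted p = 1.00). As a ratio the interval runs from 0.80 to 1.42.

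The median log2 fold change of the 10 members was 0.10, beside 0.005 over all genes tested. Efna1, Efna5, Efnb1, Efnb2, Epha2, Epha4, Ephb2 and Ephb4 had a fold change above 0, but after scaling to endothelial markers, which moved the median of all genes to −0.15, Efna5, Efnb2, Epha2, Ephb2 and Ephb4 were below 0, and with library quality weights Efna1, Efnb1, Efnb2, Epha2, Ephb2 and Ephb4 were below 0. The libraries at the ends were often the same ones. Of the 10 members, 5L was the lowest library for 5 (Efna1, Efnb1, Efnb2, Epha4 and Ephb2) and the highest for 2 (Efna4 and Efna5), and 6L, which had the highest endothelial sum, was the highest for 5 (Efnb1, Efnb2, Epha2, Epha4 and Ephb4).

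**Figure D3:**
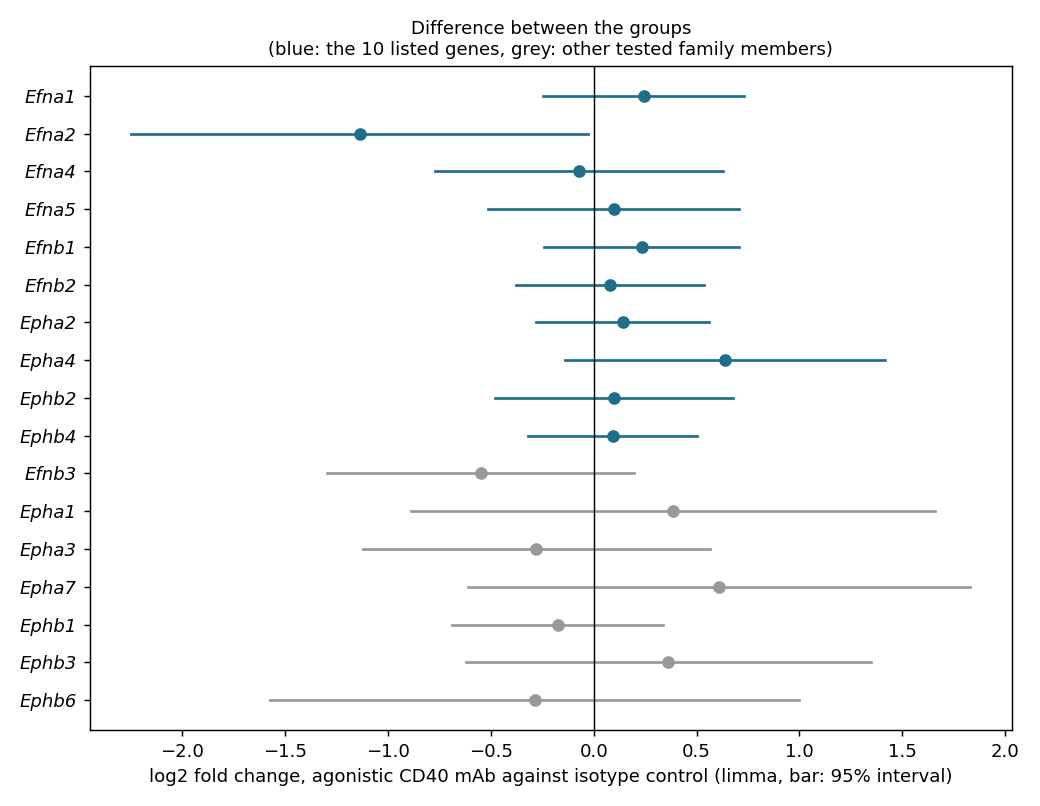
Log2 fold change of agonistic CD40 mAb against isotype control (horizontal axis, limma on log2 of normalized reads + 1) of the 10 listed genes in blue and of 7 other tested family members in grey, with bars for the 95% interval. The interval of Efna2, from −2.25 to −0.03, is the only one that does not include 0.

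A ratio of 2 genes within a library does not depend on a scale factor of that library, apart from the 1 added to each value for the log2 ratios. For this reason 3 ligands were also set against a receptor each. Efnb2 over Ephb4, the arterial ligand over the venous receptor, was 1.53 in 5N, 1.64 in 6L, 1.75 in 6R and 1.52 in 10N, against 0.913 in 5L, 2.82 in 7N, 1.61 in 8N and 1.67 in 9L. These are ratios of normalized reads without the added 1 and without division by length. The treated libraries were alike, and in the isotype control group 8N and 9L lay beside them while 5L was lower and 7N higher than all. In log2 the means were 0.68 ± 0.10 and 0.70 ± 0.66 (SD, n = 4 each), a difference of −0.01 with an exact permutation p = 0.914. The difference was −0.29 without 5L and 0.25 without 7N, so its direction rests on single libraries. Both libraries at the ends, 5L and 7N, were the shallowest of the 8, and the difference in spread between the groups was not tested. The summed level of 10 mural markers was also lowest in 5L, at 14010.3 normalized reads, and highest in 7N, at 44558, with the other 6 libraries in between, and its part in the ratio was not tested.

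Efna1 over Epha2 was 1.34 in 5N, 1.05 in 6L, 1.31 in 6R and 1.10 in 10N, against 0.746 in 5L, 1.45 in 7N, 1.14 in 8N and 1.25 in 9L. The log2 difference of the means was 0.10 (exact permutation p = 0.771), and 5L was again the lowest and 7N the highest library. Efnb1 over Ephb4 was 0.160 in 5N, 0.197 in 6L, 0.201 in 6R and 0.247 in 10N, against 0.119 in 5L, 0.211 in 7N, 0.201 in 8N and 0.210 in 9L. The log2 difference was 0.14 (exact permutation p = 0.686), and 5L was the lowest library for this ratio too. Without 5L the log2 difference was −0.091 for Efna1 over Epha2 and −0.060 for Efnb1 over Ephb4, so the direction turned in both. After Benjamini-Hochberg adjustment over the 3 ratios, each exact permutation test gave an adjusted p = 0.914.

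**Figure D4:**
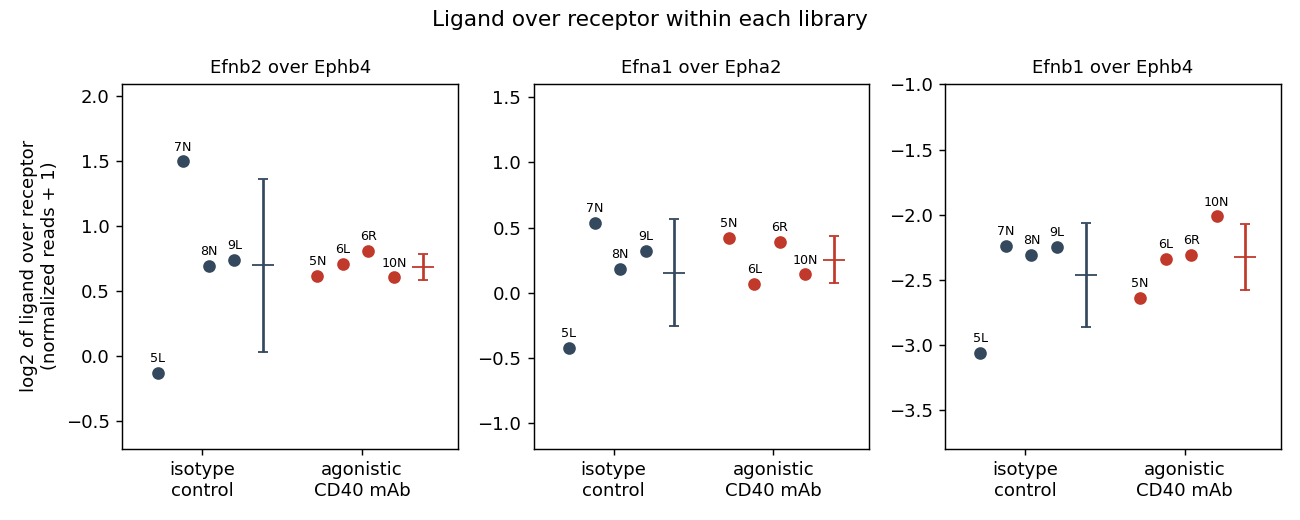
Log2 ratio of ligand over receptor (normalized reads + 1) in each library, for Efnb2 over Ephb4, Efna1 over Epha2 and Efnb1 over Ephb4, with 1 point per library and the mean with SD of each group beside the points. In all 3 panels isotype control library 5L is the lowest point, and the group means differ by −0.01, 0.10 and 0.14.

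Of 12 other ephrins and Eph receptors, 11 were measured and 7 were tested, and 0 of these 7 passed the threshold in either direction, with a median log2 fold change of −0.18. Epha3, a receptor of A-type ligands, was the most abundant of them with 139 to 567 normalized reads, with 5L the highest, and a log2 fold change of −0.28. Ephb1 ranged from 68.0 to 129 with a log2 fold change of −0.18, and Ephb3 from 24.4 to 125 with 0.36. For Ephb3 the ratio of group means was 1.11, and the lowest value, in 5L, rests on 10 reads. The B-type ligand Efnb3 ranged from 13.8 to 40.4 normalized reads with means of 20.3 ± 6.66 and 29.9 ± 8.42 (SD, n = 4 each) and a log2 fold change of −0.55 (95% interval −1.29 to 0.20, limma, adjusted p = 1.00).

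Epha1 ranged from 4.89 to 47.6 with a log2 fold change of 0.39, Epha7 from 4.76 to 41.5 with 0.61, and Ephb6, whose kinase is inactive, from 3.61 to 22.6 with −0.29. The ratio of group means was 1.05 for Epha1 and 1.26 for Epha7. The lowest value rests on 2 reads for each of them, in 5L for Epha1 and in 7N for Epha7. Below the limit for testing, Efna3 ranged from 0 to 4.89 normalized reads, Epha5 from 0 to 7.33 and Epha10 from 0 to 2.64, and Epha8 had no read in any library. Epha6 was not among the genes measured. Of the 17 family members tested in all, 1 had an unadjusted p of at most 0.05 (Efna2, lower), beside 0.339% of all genes tested that were lower in this way and 1.67% that were higher, 0 had an adjusted p under 0.05, and the groups of 16 overlapped.

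The genes through which Eph and ephrin signaling runs in the cell were taken from a list of 41 adaptors, exchange factors, phosphatases and proteases, of which 36 were tested. Of these, 16 had a fold change above and 20 below 0, 0 passed the threshold, and the median log2 fold change was −0.004. The most abundant were Mmp14, a membrane protease, at 5415 ± 508 against 5650 ± 1040 normalized reads (SD, n = 4 each, log2 fold change −0.05), and Sdcbp, whose product syntenin binds the tail of B-type ephrins, at 4892 ± 449 against 4969 ± 483 (log2 fold change −0.02).

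Since Efnb2 and Ephb4 mark arteries and veins, lists of genes of these vessels, which hold the pair too, were counted. Of 17 arterial genes 16 were tested and 0 passed the threshold, with a median log2 fold change of 0.19. Those of the largest mean were Nrp1, a VEGF co-receptor, at 0.13 and Dll4, a Notch ligand, at 0.27 on this scale. Of 10 venous genes 1 was past the threshold and higher, beside 1.28% of all genes tested, and the median was 0.08, with Aplnr, the apelin receptor, at −0.03 and Nrp2 at −0.02. The venous gene past the threshold was Vcam1, an adhesion molecule for leukocytes that cytokines induce, at 702 ± 39.8 against 431 ± 179 normalized reads (SD, n = 4 each). Its ratio was 1.63, its log2 fold change 0.83 (SE 0.31, limma, adjusted p = 1.00), and its groups did not overlap, beside 1.09% of all genes tested. Without 5L its ratio was 1.36, and after scaling to endothelial markers 1.49, both short of the threshold. The 6 lymphatic endothelial markers summed to 3161 to 5412 against 2102 to 4007 normalized reads, with 0 of 6 past the threshold. All 6 had a log2 fold change above 0, from 0.09 to 0.94 with a median of 0.58. The 2 of largest mean, Flt4 and Pdpn, were at 0.19 and 0.09.

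Of the lists for cells outside the endothelium, 0 genes passed the threshold. The 11 melanoma markers had a median log2 fold change of −0.16 (Tyrp1 −0.29 and Dct −0.07), the 10 mural markers −0.21 (Rgs5 −0.31 and Acta2 −0.30), and the 8 fibroblast markers 0.15 (Col1a1 0.11 and Col3a1 0.17). Of 17 leukocyte markers only 6 were expressed above the limit, the whole list summed to 237 to 475 against 156 to 393 normalized reads, and 1 of the 17 had no read in any library. The 6 tested had a median log2 fold change of 0.34, and 0 of 6 passed the threshold. Their most abundant genes were Lyz2 with a log2 fold change of 0.79 and Cd68 with −0.08. The 14 endothelial markers had a median of 0.12, with Cdh5 at 0.11 and Pecam1 at 0.24. The part of these cell types in the levels of the members was not tested.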

How the data were processed

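RNA of sorted CD45- CD31+ cells from 8 B16-F10 tumors was sequenced (1 library per tumor). The authors used TopHat2 and the mm10 genome for alignment, Partek for counting by gene and DESeq2 size factors for scaling, and they deposited the scaled signal, here called normalized reads. The labels and notes name Bowtie2 2.2.1, CASAVA 1.8 and Partek 6.6. Of the deposited values, 99.9% were whole multiples of 1 read (within 0.1 read), so reads were recovered. Correction for harvest day, flooring and trimming, which the methods describe, are not visible in the values. The tests here held no term for harvest day, and its part in the differences was not tested. The study's model included macrophage libraries not used here, so its two-way analysis was not run.

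Values were tested as log2(value + 1) with limma 3.58.1 (R 4.3.3, variance trend, treatment only). The test covered 12969 genes with a larger group mean above 10, with Benjamini-Hochberg adjustment. The added 1 makes the difference of 2 logs smaller at low values. A fold change is a difference of mean logs, so it can be larger or smaller than the ratio of group means. The threshold combined a ratio of means of 1.5 or more, or its inverse, with limma p no higher than 0.05 before adjustment. Single genes and ligand-receptor ratios were compared by two-sided exact permutation tests. The exact Poisson intervals were computed with scipy 1.17.1. Scripts were tested on simulated data. Positions came from GENCODE M21 (mm10) and promoters from RefSeq (GRCm38.p6). Alternatives were pseudocounts of 0.1 and 10, all genes with a value above 0, a mean above 50, quantile and TMM scaling, limma without the trend or with library quality weights, edgeR 4.0.16, DESeq2 1.42.0, leaving out each library, and, chosen after seeing the data, scaling to 14 endothelial markers.

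The members and lists were chosen with earlier results of these data known. Named were the members, the other family members by range, and of each other list the genes past the threshold and the 2 of largest mean, besides Ptprc, Pecam1, Cdh5, Pmel and Mlana. The labels do not say that mouse numbers pair tumors across groups, and each library is a separate tumor. A further promoter search is not reported here.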

Additional observations from a re-analysis of the deposited data

Results flagged for a closer look

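The ratio of Efnb1 over Ephb4 in isotype control library 5L was −3.06 on the log2 scale, far below the other 3 isotype control libraries, which lay between −2.31 and −2.24. The gap to the nearest library was 0.911 of the range of the group. Such a distance arises by chance in about 1 of 20 groups, and 26 groups of 4 libraries were looked at, of which 1 stood out. In 5L Efnb1 rests on 55 reads, and the part of depth in this value was not tested.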

How the results depend on the processing

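No member had an adjusted p under 0.05 in any alternative. Of the log2 fold changes, those of Efna1, Efna4, Efnb1, Efnb2, Epha2, Ephb2 and Ephb4 changed sign with library quality weights, to −0.044, 0.17, −0.038, −0.095, −0.098, −0.20 and −0.089, and those of Efna5, Efnb2, Epha2, Ephb2 and Ephb4 after scaling to endothelial markers, chosen after seeing the data, to −0.054, −0.073, −0.011, −0.053 and −0.060, beside a median of −0.15 over all genes. Leaving out each library in turn gave 0.0053 to 0.39 for Efna1, 0.11 to 0.36 for Efnb1, −0.20 to 0.15 for Efna4, −0.052 to 0.25 for Efna5, −0.12 to 0.19 for Efnb2, −0.0017 to 0.24 for Epha2, −0.12 to 0.26 for Ephb2 and −0.066 to 0.17 for Ephb4. Efna2 was lower in every alternative in which it was tested, with log2 fold changes from −1.46 to −0.53 over 10 settings and from −1.37 to −0.91 with 1 library left out. The count of members past the threshold and lower was 0 with a pseudocount of 0.1, at a mean above 50, where Efna2 was not tested, and after scaling to endothelial markers, and 0 to 1 with 1 library left out, and the count of higher members was 0 to 1, with Epha4 past the threshold only without 8N. Of all genes, 166 were higher and 31 lower past the threshold. With all genes with a value above 0, 331 were higher and 93 lower. The lower genes were 13 at a mean above 50, 63 with quantile normalization, 51 after scaling to endothelial markers, 57 without the trend, 70 with quality weights, 47 with edgeR and 58 with DESeq2, and with 1 library left out they were 27 to 117, the highest without 5L, and 51 without 9L. The higher genes were 124 to 234 with 1 library left out. The log2 difference of Efnb2 over Ephb4 was 0.0082 with quantile normalization and −0.29 to 0.25 with 1 library left out, that of Efna1 over Epha2 −0.091 to 0.23 and that of Efnb1 over Ephb4 −0.060 to 0.24. The cause of these shifts was not tested. No paired analysis was possible because the replicate numbers only name the libraries in accession order. Among the 10 members, Efna2 and Epha4 had the fewest reads in any single library, 4 and 8. Of the other tested family members, Epha1 and Epha7 had 2 and Ephb6 had 4 in the library with the fewest.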
